A study of Mus musculus with 3 samples.

Results

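Inflammasomes are protein platforms that macrophages assemble in the cytosol when they sense microbial products or damage. A sensor (Nlrp3, Aim2, Nlrc4 with its partner Naip5, or Nlrp1b) recruits caspase-1, in most cases through the adaptor ASC, which is encoded by Pycard. Caspase-1 matures interleukin-1β and interleukin-18, while mouse caspase-11, encoded by Casp4, binds LPS directly, and both caspases cleave gasdermin D (Gsdmd), whose fragment forms the pores of pyroptosis. In macrophages LPS is known as the priming signal that raises the transcripts of several of these genes before any platform is assembled.

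The 9 genes described here, Nlrp3, Aim2, Nlrc4, Naip5, Nlrp1b, Pycard, Casp1, Casp4 and Gsdmd, were taken by their names among the 36870 gene names of the arrays, and 15 of the 56605 probes carry one of these names. RAW264.7 cells, a mouse macrophage line, were measured in 3 conditions with 1 one-colour array each: LPS for 3 h with no bacteria, LPS after Lactobacillus plantarum LOC1, and LPS after L. plantarum LOC3. The bacteria were given for 12 h before LPS per the labels, and for 24 h per the study's methods, and all 3 arrays carry the LPS challenge. Unchallenged RAW264.7 cells enter only as the reference of the deposited log2 ratios. One array per group leaves no replicate error, so no test between conditions is possible, and each difference is set beside the technical spread of probes printed several times on an array.

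The 3 arrays shared 1 slide and 1 scan, between 47.8% and 51.9% of the probes were well above background on them, and no spot was saturated. The technical SD was computed from spots of the same probe within each array and scaled to a log2 difference. It was 0.06 over 269 bright probes and 0.30 over 10 dim probes. Dim means a mean signal under the 75th percentile of the array by more than 2-fold. This spread holds the printing and hybridization within 1 array. It holds none of the variation between arrays, labellings or cultures, so a difference past it is not thereby resolved. All 8 macrophage markers examined, among them Lyz2, Cd68 and Csf1r, were well above background with LPS and 7 of them with each strain, Mrc1 being the exception, and their intensities summed to 458235 on the LPS array, 363143 after LOC1 and 393449 after LOC3. Among the markers of other cells, Cd8a, Cd79a, Ly6g, S100a9, Cdh1 and Krt8 were not well above background on any array. At least 1 probe was well above background with LPS for 3 of 4 T cell, 1 of 3 neutrophil, 3 of 3 dendritic cell, 1 of 3 epithelial and 3 of 3 fibroblast markers, with summed intensities of 1362 at most.

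Every one of the 9 genes had at least 1 probe well above background on all 3 arrays, including Pycard. RAW264.7 cells are known for lacking the ASC protein, but on these arrays Pycard did not lack signal. The probe that gave the Pycard signal lies at mm9 chr7:135136241-135136300 on the minus strand and starts at base 721 of the transcript NM_023258. Its 60 bases are shown, in capitals throughout because the whole probe is the target, together with those of the single Nlrp3 probe at mm9 chr11:59378554-59378613 on the plus strand.
Pycard probe: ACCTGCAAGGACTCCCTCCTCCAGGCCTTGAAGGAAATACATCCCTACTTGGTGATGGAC
Nlrp3 probe: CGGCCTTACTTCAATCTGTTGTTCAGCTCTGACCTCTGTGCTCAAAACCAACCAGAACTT
Neither shares a run of 20 bases with another probe of the array, on either strand. The other probe filed under Pycard belongs to the transcript AK050905 on the opposite strand, at mm9 chr7:135140025-135140084, and is not matched to the RefSeq gene. It read 7.90 with LPS, 3.43 with LOC1 and 4.57 with LOC3 and was not well above background on any array. The array therefore measured Pycard RNA by 1 probe, and it does not measure the ASC protein.

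Further stretches show where on their transcripts the caspase and Aim2 probes sit. The last 30 bases of the probes for Casp1, Casp4 and of the second Aim2 probe each hold AATAAA, the polyadenylation signal hexamer, given in capitals. It is found in the last 30 bases of 8.13% of all probes.
Casp1 probe: aatacttccttagatgatgcAATAAAtatt
Casp4 probe: ccatagacaagcaaacaagcaaaAATAAAa
Aim2 probe: tgtgaaattccctagcactcAATAAAagaa
The Casp1 probe lies at mm9 chr9:5307206-5307265 and the Casp4 probe at mm9 chr9:5336658-5336717, both on the plus strand of chromosome 9, where the genes are neighbours. Of the remaining probes, the second for Gsdmd spans 365 genomic bases of chromosome 15 with its 60 bases and so covers a splice junction.

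The brightest Naip5 probe is less specific than the others. Its bases 23 to 60 lie in runs of 20 bases that recur in mouse promoter windows, and 30 of them are shown in capitals.
Naip5 probe: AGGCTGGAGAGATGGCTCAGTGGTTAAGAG
A run of 20 bases of this probe was found in 38 of 32851 RefSeq promoter windows (GRCm38.p6) and in 3 other probes, while the other 14 probes of the 9 genes were found in none of either. Only 0.254% of all 56605 probes were found in that many windows. The Naip5 values from this probe are thus uncertain, and the other Naip5 probe, at base 651 of the transcript, is assigned by its accessions to Naip1 and Naip6 as well, paralogs of Naip5.

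Against unchallenged cells, Casp4, Nlrp3, Casp1 and Aim2 were higher after LPS in the deposited log2 ratios, which list 4 of the 9 genes and each of them as higher. Of all 36870 gene names 9.70% are listed as higher, and of the 19337 well above background with LPS 14.5% are. Casp4 stood at 4.32 with LPS, which is 20.03-fold, at 4.51 with LOC1 and at 4.54 with LOC3. Nlrp3 followed at 2.97 on the LPS array, or 7.84-fold, while its ratio was 3.104 after LOC1 and 3.34 after LOC3. Casp1, the protease common to the platforms, had ratios of 1.92, 1.96 and 2.03 in the same order, or 3.78-fold with LPS. Aim2, the sensor of cytosolic DNA, had the smallest ratios of the 4 listed genes, at 1.24 with LPS (2.37-fold), 1.61 with LOC1 and 1.73 with LOC3.

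The LPS intensity divided by the fold gives an implied signal in unchallenged cells of 83.6 for Nlrp3, 1441 for Aim2, 2050 for Casp4 and 10546 for Casp1. All of them lie above 16.3, the lowest signal called well above background on the LPS array. In each of the 4 genes LOC3 had the highest ratio and LPS alone the lowest. The other 11 probes of the 9 genes, among them the second Aim2 probe and all those for Nlrc4, Naip5, Nlrp1b, Pycard and Gsdmd, are not in the deposited table, from which nothing was drawn about their response to LPS. The ratios come from 1 array of each condition and have no replicate check.

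**Figure D1:**
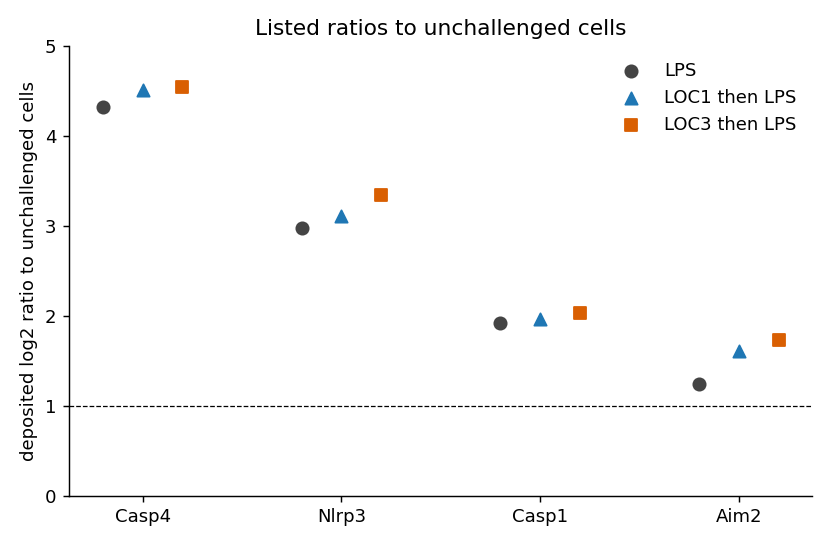
Deposited log2 ratio to unchallenged cells (vertical axis) of the 4 listed genes on the 3 arrays, 1 point per array, with the 2-fold threshold of the table as a dashed line. Casp4 is highest, from 4.32 to 4.54, and Aim2 lowest, from 1.24 to 1.73.

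After either strain none of the 9 genes differed from LPS alone by 2-fold or more. The count was 0 of 9 with LOC1, where 6.30% of 20019 genes were past 2-fold, and 0 of 9 with LOC3, where 6.15% of 19790 genes were. Between LOC1 and LOC3 it was also 0 of 9, beside 2.63% of 19382 genes. At these shares of all genes, a count of 0 among 9 is near the background and is not a property of the 9 genes. Both comparisons with LPS share the LPS array.

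**Figure D2:**
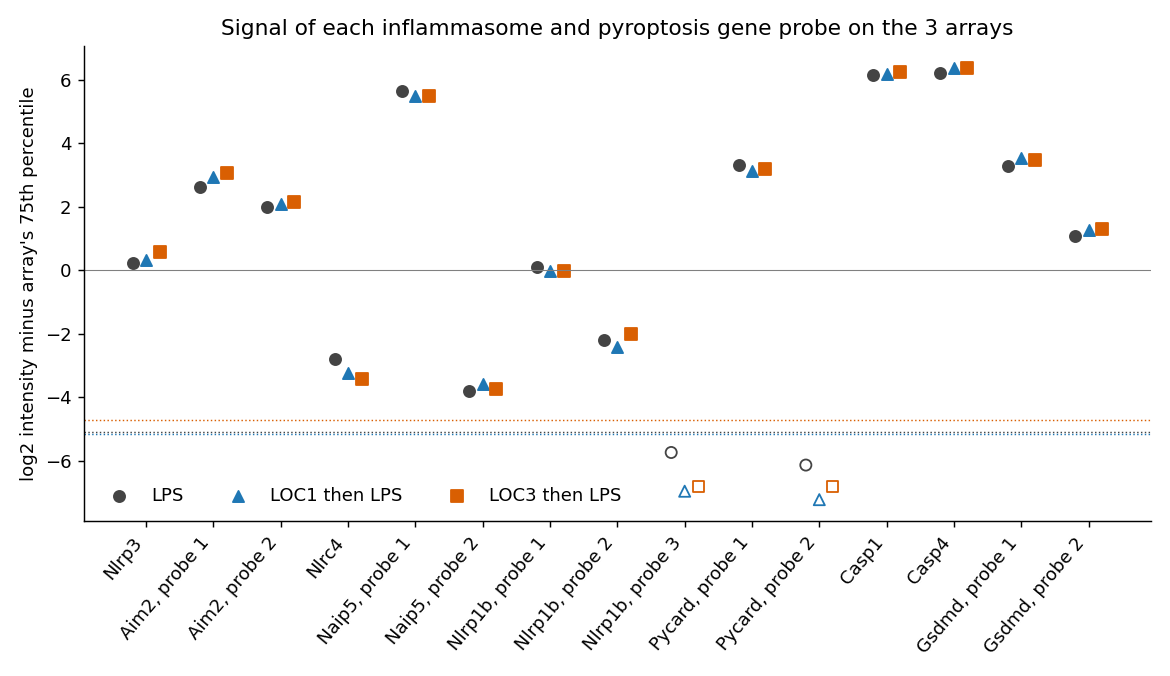
Signal of the 15 probes on the 3 arrays, as log2 intensity minus the 75th percentile of the array (vertical axis), with filled symbols for signals well above background, open symbols for others, and a dotted line for the lowest signal well above background on each array. The filled symbols of a probe lie close together. The open symbols, which are further apart, belong to the third Nlrp1b probe and the second Pycard probe. Levels of different probes cannot be compared.

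Among the sensors, Nlrp3, which responds to potassium efflux and membrane damage, read 655 with LPS, 649 with LOC1 and 768 with LOC3. After scaling to the 75th percentile, Nlrp3 differed from LPS by 0.10 for LOC1 and by 0.33 for LOC3 on the log2 scale. LOC3 was 0.23 above LOC1 on the log2 scale, more than the technical SD of 0.06, and the LOC1 and LPS values lay closer together.

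Aim2 showed the same order, with steps from LPS whose size depended on the probe. Its first probe read 3415 with LPS, 3966 with LOC1 and 4321 with LOC3, which gave log2 differences from LPS of 0.33 and 0.44. The second probe read 2211, 2173 and 2314 and gave 0.09 and 0.17. Both probes placed LPS lowest and LOC3 highest after scaling, but the size differed between them by more than the technical SD.

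Nlrc4, the partner of the Naip sensors for flagellin and secretion system proteins, was the only one of the 9 genes measured by a dim probe alone. It read 80.3 with LPS, 54.9 with LOC1 and 48.1 with LOC3, with log2 differences from LPS of -0.44 and -0.63. These are the lowest values among the 9 genes in both comparisons at the 75th percentile scaling, and they stand beside a technical SD of 0.30 for dim probes. With normexp background correction they were -0.18 and -0.27.

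Naip5, which binds flagellin, read 27898 with LPS, 23168 with LOC1 and 23373 with LOC3 by the probe with the recurrent stretch. The log2 differences from LPS were -0.16 with LOC1 and -0.15 with LOC3, and both turned positive with median scaling. The second probe read 39.7, 42.7 and 38.6 and gave 0.22 and 0.06, within the technical SD of dim probes. The direction for Naip5 thus depends on the probe and on the scaling.

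Nlrp1b, the sensor cleaved by anthrax lethal factor, read 599 with LPS, 500 with LOC1 and 510 with LOC3 by its brightest probe. The log2 differences were -0.15 and -0.13, and both turned positive with median scaling. The second probe read 122, 95.6 and 128 and gave -0.24 and 0.17. The third probe, at base 1934 of the transcript, was not well above background on any array.

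The adaptor Pycard read 5511 with LPS, 4471 with LOC1 and 4764 with LOC3. Against LPS this was -0.19 for LOC1 and -0.11 for LOC3 on the log2 scale, past the technical SD, but both turned positive with median scaling.

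Of the caspases, Casp1 read 39825 with LPS, 37064 with LOC1 and 39031 with LOC3, with log2 differences of 0.01 and 0.07, and the sign of the first turned with quantile normalization, normexp and the 75th percentile over detected probes, that of the second with quantile normalization alone. Casp4 read 41055 with LPS, 42266 with LOC1 and 43216 with LOC3, with log2 differences of 0.15 and 0.18. LOC1 and LOC3 differed in Casp4 by 0.02, less than the technical SD, with LPS alone below both.

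Gsdmd, the pore former, read 5465 with LPS, 5942 with LOC1 and 5732 with LOC3 by its first probe, and 1164, 1227 and 1268 by the second. The log2 differences were 0.23 and 0.17 by the first probe and 0.19 and 0.23 by the second. Both probes placed the strains above LPS alone, and they gave the strains opposite orders.

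**Figure D3:**
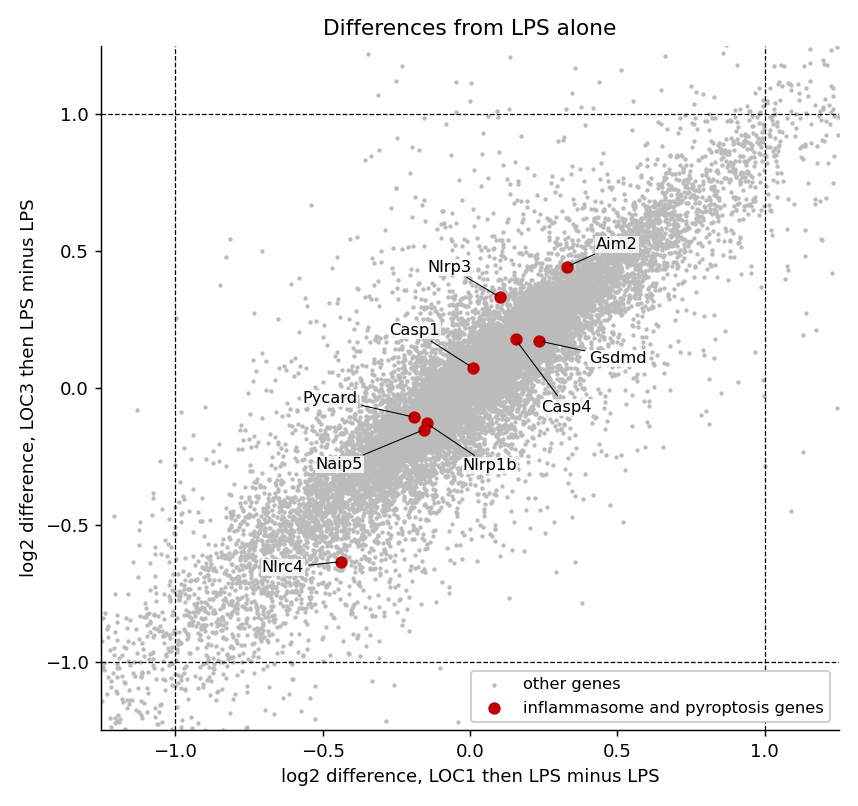
Log2 difference from LPS alone with LOC1 (horizontal) and with LOC3 (vertical) by the brightest probe of each of 17405 genes well above background on all 3 arrays, with the 9 genes in red, 2-fold as dashed lines and 507 genes outside the axes. The 9 genes lie between -0.44 and 0.33 with LOC1 and between -0.63 and 0.44 with LOC3. Both axes contain the LPS array, so their likeness is partly built in.

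Over the 9 genes the differences from LPS had a median of 0.01 for LOC1 and 0.07 for LOC3 on the log2 scale, beside 0.00 and 0.01 over all genes compared. The median size of the difference, without its sign, was 0.16 with LOC1 and 0.17 with LOC3, beside 0.25 and 0.23 over all genes. Of the 9 genes 8 were measured by a bright probe, whose technical spread is smaller than that of the dim probes among all genes. With median scaling the median of all genes moved to 0.22 with LOC1 and 0.20 with LOC3, and signs are therefore relative to the scaling. Nlrp3, Aim2, Casp4 and Gsdmd stayed above LPS alone and Nlrc4 below it with both strains in every alternative run.

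Nlrc4 had the largest LOC1 difference of the 9 genes at the 75th percentile scaling, though Aim2 had with median scaling (0.55 against -0.22) and with normexp (0.33 against -0.18). By closeness over the 2 differences from LPS, the genes most like Nlrc4 were a transcript that the array names only by its position on chromosome 13, Myh14 and Pnma2. Their distances of 0.007, 0.008 and 0.014 lie far inside the technical SD of 0.30 of the dim Nlrc4 probe. In all, 1487 of 17405 genes lay within that SD of Nlrc4, so the order of its nearest genes is not resolved.

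The RefSeq promoter table held windows, from 250 bases before to 50 after a start, for 8 of the 9 genes. The kB consensus, bound by NF-kB, was searched on both strands and matched in windows of Casp4, Nlrp3 and Naip5, which is 4 of 11 windows, beside 4.51% of all 32851 windows. The 2 windows of Casp4 overlap and hold the same match. The 250 bases before the start of Casp4, the gene with the highest ratio to unchallenged cells, are shown from chr9:5308599-5308848 of GRCm38.p6, plus strand, with overlapping matches in capitals.
Casp4 promoter: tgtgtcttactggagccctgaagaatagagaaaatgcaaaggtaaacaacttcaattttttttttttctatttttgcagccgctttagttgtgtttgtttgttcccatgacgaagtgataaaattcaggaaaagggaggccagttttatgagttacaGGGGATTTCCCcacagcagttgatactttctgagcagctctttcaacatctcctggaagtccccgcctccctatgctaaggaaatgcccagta
The interferon-response core (GAAA repeated after 2 bases of any kind) and the STAT-type motif TTCNNNGAA, searched on both strands, were in none of the 11 windows and in 3.44% and 8.30% of all windows. A match describes letters in the window and not binding.

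Other genes of the pathway were examined as 8 lists by role, and 58 of their genes could be compared with LOC1 and 57 with LOC3. With LOC1, 2 of the 58 lay past 2-fold upward and 2 downward, beside 2.49% and 3.81% of all genes. With LOC3, 2 of the 57 were higher and 0 lower, beside 2.98% and 3.18%. Between the strains 0 of 58 were past 2-fold, beside 0.800% of all genes higher and 1.83% lower. The signs of the list medians below hold for the brightest probes at the 75th percentile. Median scaling turned those of NLRP3 activation with both strains, to 0.16 and 0.13. It also turned that of the substrates and released mediators with LOC1, to 0.09. The mean of the detected probes turned those of the brakes (-0.25 with LOC1, -0.31 with LOC3) and of the transcription factors (-0.11 with both strains), and of the other sensors with LOC3 (-0.05). With neither filter nor floor the pore formers turned, to 0.01 with LOC1 and 0.27 with LOC3.

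**Figure D4:**
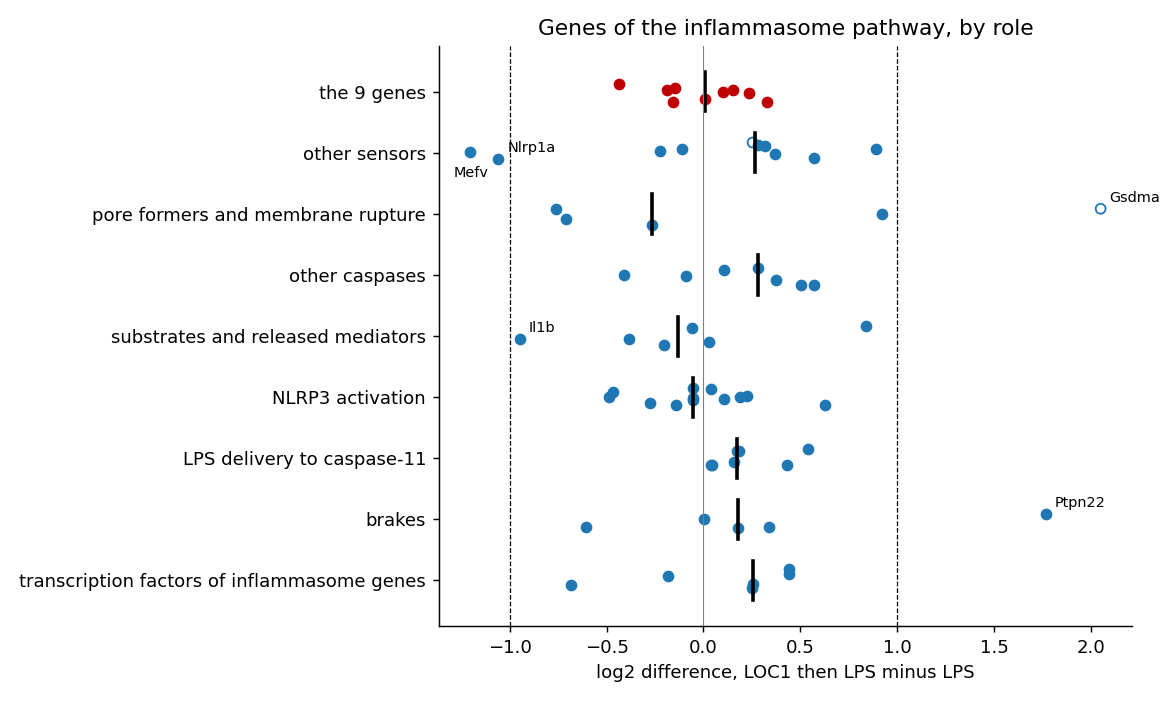
Log2 difference with LOC1 from LPS alone (horizontal) of each gene compared, by role (rows), with the list's median as a black bar, 2-fold as dashed lines and open symbols for bounds. Mefv and Nlrp1a lie below the threshold on the left, Ptpn22 and the bound of Gsdma beyond it on the right, and the 9 genes lie inside it.

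The list of other sensors holds 14 names, among them the pseudogene Nlrp1c-ps and Dpp8 and Dpp9, which are not themselves sensors. Its median difference was 0.27 with LOC1 over 10 compared, and 0.27 with LOC3 over 9. Nlrp1a, a paralog of Nlrp1b, read 12964 with LPS, 5751 with LOC1 and 6548 with LOC3, differences of -1.06 and -0.88 on the log2 scale. Its second detected probe gave -0.08 and 0.17, and the LOC1 value was -0.57 in the mean of detected probes and -0.84 with median scaling, both short of 2-fold. Mefv, which encodes the inflammasome sensor pyrin, read 145, 58.2 and 80.0, with differences of -1.20 and -0.75, while its second probe gave -0.21 and -0.22. The LOC1 value for Mefv was short of 2-fold in the mean of the probes (-0.71), with normexp (-0.66) and with median scaling (-0.99). Its deposited ratios to unchallenged cells were 3.87 with LPS, 2.70 with LOC1 and 3.16 with LOC3. Ifi204, of the same DNA-binding family as Aim2, had differences of 0.28 with LOC1 and 0.27 with LOC3 by its brightest probe.

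Among pore formers the median was -0.26 with LOC1 and -0.19 with LOC3 over 5 of 9 genes compared, a sign that turned without the filter and floor. By its brightest probe Gsdma read 62.5 with LOC1 and 46.8 with LOC3 and was not well above background with LPS, at 7.07. This probe puts it at least 4.14-fold above the LPS array after LOC1 and at least 3.08-fold after LOC3. These bounds are set by the lowest signal called well above background with LPS. The second Gsdma probe was well above background with LOC1 alone, at 18.8, a bound of only 1.247-fold. The mean of the detected probes gave Gsdma a log2 difference of 1.18 with LOC1. With normexp its log2 differences were 0.89 and 0.69, both short of 2-fold. Gsdma is in the upward count of either strain, and it left the comparisons with LPS when both arrays had to be above background. Ninj1, which mediates the final rupture of the membrane, had differences of -0.26 and -0.19. The apoptotic and other caspases had medians of 0.28 and 0.38 over 7 of 8 compared, with 0 past 2-fold.

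The substrates and released mediators, a list that also holds the antagonists Il1rn and Il18bp, had medians of -0.13 with LOC1 and -0.27 with LOC3. Of these 6 genes 0 were past 2-fold by the brightest probe. Il1b, the main substrate of caspase-1, read 134524 with LPS, 64471 with LOC1 and 76772 with LOC3, with differences of -0.95 and -0.71. Its other probes gave larger differences, -1.24 and -1.05 for the second and -2.59 and -2.55 for the third, so that 2-fold was passed with both strains by 2 of the 3 probes and in the mean of all 3, at -1.59 and -1.44. By the brightest probe the deposited ratio to unchallenged cells reached 13.16 on the LPS array, 12.25 after LOC1 and 12.50 after LOC3. Il18, the other cytokine substrate, read 6613, 6235 and 6591, with differences of 0.03 and 0.10. Il18bp, the secreted antagonist of IL-18, had differences of 0.84 and 0.80 by the first probe and 0.75 and 0.78 by the second.

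The genes of NLRP3 activation had medians of -0.05 with both strains over 12 genes, with 0 past 2-fold by the brightest probe. A dim P2rx4 probe, well above background on all 3 arrays, gave -0.94 and -1.10, where the brightest gave -0.06 and 0.05. Nek7, the kinase that binds NLRP3, had differences of -0.05 and -0.12, and Txnip of 0.63 and 0.57. The guanylate-binding proteins and immunity-related GTPases that expose LPS to caspase-11 had medians of 0.17 with both strains. By the brightest probe 0 of 7 were past 2-fold. A dim Irgm1 probe, well above background on all 3 arrays, gave -0.66 and -1.05. The second Gbp5 probe gave -0.52 and -0.64, where the first gave 0.43 and 0.55. All 7 genes of this list are listed far above unchallenged cells with LPS, from 4.56 for Gm12250 to 10.78 for Gbp5 by the brightest probe. Of all gene names 9.70% are listed as higher, and of those well above background with LPS 14.5% are.

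The list named brakes, which includes Ptpn22, had medians of 0.18 with LOC1 and 0.08 with LOC3 over 5 of 8 compared. Ptpn22 encodes a phosphatase that acts on NLRP3 and is not taken as a brake on it here. It read 209 with LPS, 658 with LOC1 and 458 with LOC3, with differences of 1.77 and 1.24. Normexp gave 1.46 and 0.97, the latter short of 2-fold. Its deposited ratio was -2.36 with LPS and -1.09 with LOC3. Tnfaip3, which encodes A20, had differences of -0.60 and -0.36. The third Trim30a probe gave -1.05 and -1.21, where the first gave 0.18 and 0.16. The transcription factors had medians of 0.25 with LOC1 and 0.27 with LOC3 over 6 genes, with 0 past 2-fold by the brightest probe, and ranged with LOC1 from -0.68 for Irf8 to 0.44 for Irf1. The second Irf8 probe, well above background on all 3 arrays, gave -1.83 and -1.57, and the mean of its probes passed 2-fold with LOC1. The second Irf2 probe gave -1.07 and -1.37, where the first gave 0.26 and 0.30.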

How the data were processed

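RNA of RAW264.7 cells was labelled with Cy3 (200 ng per array) and hybridized to Agilent mouse arrays, 1 for each condition. Spot intensity was deposited by the authors as the processed signal of Feature Extraction (12.0.3.1 in the headers), background-subtracted and not normalized between arrays. The log2 ratios to unchallenged cells were deposited by the authors with values under 2-fold blank. Their column medians were 1.05 (LPS), -1.03 (LOC1) and -1.04 (LOC3). Column differences matched those of the log2 intensities after a constant shift of 0.03 (LOC1) or 0.04 (LOC3) from LPS for 100% of probes within 0.01, which settles the log2 scale and the sign between arrays, and the centring against the unchallenged array could not be checked. R 3.2.5 and limma are named in the submitters' processing notes.

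Outlier spots were left out (118 to 135 per array), each array was scaled by its 75th percentile (513 to 555), and each gene was read by its brightest probe if well above background on 1 of the 2 arrays compared, with signals not well above background raised to the array's lowest such signal. Differences past 2-fold were counted. Python 3.11.15, numpy 2.4.6, pandas 2.3.3, matplotlib 3.10.9 and limma 3.58.1 under R 4.3.3 (normexp, offset 50) were used. The steps were tested on simulated data. Probe positions are mm9, from the files, and promoters are RefSeq's. RefSeq accessions matched 14 of the 15 probes. All 9 genes are named with every probe, and of the lists the genes past 2-fold, with Il1b and Il18. Other list genes given as examples were chosen after their values were seen. The genes, lists and settings were chosen with earlier results of these data known. Depth does not apply to arrays, and their number limits the precision.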

Additional observations from a re-analysis of the deposited data

How the results depend on the processing

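The count of 0 of the 9 genes past 2-fold was found in all 3 comparisons under median scaling, the 75th percentile over detected probes, quantile normalization, normexp, the deposited ratios (4 genes), both arrays above background, neither filter nor floor, averaged detected probes, probes in place of genes (13 probes) and outlier spots kept. No spot was saturated and a count of 0 at 2-fold is 0 at 3-fold, so these 2 settings could not change it. The same held with the 75th percentile over distinct probes and without the Naip5 probe with the recurrent stretch, both chosen after seeing the data. Single genes gave 282 differences under the settings other than saturated spots left out and the 3-fold threshold. Of these, 245 moved by less than the technical SD and 37 by more, and they ranged from -0.68 to 0.63. The 4 genes listed as higher with LPS were 4 with a floor on the unchallenged signal or by the brightest probe, and 3 at 3-fold.

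Among the pathway lists with LOC1, the counts higher and lower were 2 and 2. They were 5 and 0 with median scaling, 3 and 3 with quantile normalization and 1 and 1 with normexp. With both arrays above background they were 1 and 2, with no filter 4 and 3, and at 3-fold 2 and 0. The shares of all genes past the threshold were, in that order, 6.30%, 6.77%, 6.18%, 2.10%, 4.65%, 10.4% and 2.05%. Median scaling gave 884 of 20019 genes higher and 472 lower, beside 499 and 762 in the main setting. With LOC3 the list counts were 2 and 0, but 0 and 0 with normexp. They were 1 and 0 with both arrays above background and at 3-fold. With no filter they were 5 and 0, and with the mean of probes 2 and 1. The shares of all genes past the threshold were, in that order, 6.15%, 2.07%, 4.06%, 2.02%, 10.3% and 6.13%. Leaving out an array and a slide or scan block were not possible with 1 array per group on 1 slide. No paired analysis was possible because each group has 1 array.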
